A study of Homo sapiens with 2 samples.

Results

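Interferon and RNA-sensing genes were examined in SBC-3 cells after depletion of the long noncoding RNA HOTAIR. The group held 38 genes, chosen by name from the interferon response and the sensing of foreign RNA, and was divided into 8 RNA sensors, 6 signalling factors and 24 induced genes. Probes were assigned to them through the RefSeq accession that the array files give for each probe. Of the 38 genes, 37 had such a probe, out of 19061 genes named on the arrays, and IFI27 had none.

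The series holds 2 one-colour Agilent arrays, 1 hybridized with RNA of SBC-3 cells that received #1 siHOTAIR and 1 with RNA of SBC-3 cells that received siGFP. SBC-3 is an adherent human small cell lung cancer (SCLC) cell line. The small interfering RNA (siRNA) siGFP is directed against green fluorescent protein and served as the control, so both cultures had been transfected with an siRNA duplex using a cationic lipid. An untransfected or mock-transfected array is not analysed here, and an effect common to both transfections cannot be read from the comparison. There was 1 array per condition and 1 cell line, so no P-value was computed, and the siRNA, the culture and the array cannot be told apart. Both arrays lay on 1 slide and were read in 1 scan. In RNA from a whole culture, fewer cells with a transcript and less of it in each cell cannot be told apart either.

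Cells recognise RNA that looks viral, above all double-stranded RNA, by cytoplasmic helicases, endosomal Toll-like receptors and RNA-activated enzymes. The helicases act through the adaptor MAVS, after which the transcription factors IRF3 and IRF7 switch on interferon genes. Secreted interferon binds receptors on the same and neighbouring cells, and a complex that holds STAT2 and IRF9 then switches on the induced genes by way of the interferon-stimulated response element in their promoters. An siRNA is itself a short RNA duplex, which is why these genes are commonly watched in knockdown experiments.

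The duplexes are shown because both conditions delivered one. They are written 5′ to 3′, and the capitals mark the unpaired 3′ ends of strands with 21 bases, of which 19 pair with the other strand.
#1 siHOTAIR sense: gaacgggaguacagagagaUU
#1 siHOTAIR antisense: ucucucuguacucccguucUU
siGFP sense: cuacaacagccacaacgucTT
siGFP antisense: gacguuguggcuguuguagTT
The overhangs were uridines in #1 siHOTAIR and thymidines in siGFP, so the duplexes differed in overhang as well as in target.

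The promoters were searched for the core letters of the interferon-stimulated response element, written as GAAA, 2 bases of any kind, then GAAA, on either strand. RefSeq windows of 300 bases, from 250 bases before to 50 after a gene's start (GRCh38.p14), were at hand for 28 of the 38 members. The letters stood in 20 of the 28 (71.4%), against 1195 of 27305 genes with a window (4.38%). They stood in 16 of 18 induced genes and 4 of 6 sensors, but in 0 of 4 signalling factors (MAVS, STAT2, IRF1 and IRF9). Among 56 other genes of the interferon pathway, 20 held them (35.7%). The matches printed here come from 4 members with bright signals (IFIT1, ISG15, IFITM3 and EIF2AK2), from IFIH1 and BST2, whose ratios between the arrays were among the largest, and from RSAD2 and MX1, which were not well above background. Each run is read along the gene's strand, and the capitals mark the match, which reads TTTC, 2 bases, TTTC where the letters lie on the opposite strand.
IFIT1, chr10:89392497-89392526, + strand: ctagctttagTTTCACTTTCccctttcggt
ISG15, chr1:1013380-1013409, + strand: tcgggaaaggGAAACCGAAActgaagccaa
IFITM3, chr11:320876-320905, - strand: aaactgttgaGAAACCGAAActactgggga
EIF2AK2, chr2:37156967-37156996, - strand: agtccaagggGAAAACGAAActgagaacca
IFIH1, chr2:162318686-162318715, - strand: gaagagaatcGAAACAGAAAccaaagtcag
BST2, chr19:17405741-17405770, - strand: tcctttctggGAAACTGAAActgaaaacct
RSAD2, chr2:6877622-6877651, + strand: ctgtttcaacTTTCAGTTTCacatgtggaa
MX1, chr21:41420559-41420588, + strand: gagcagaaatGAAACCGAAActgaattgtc
In ISG15 and BST2 a second match overlaps the one shown. A match describes the letters only and is not evidence that a factor was bound. Members with a signal held the letters about as often as members without one, 13 of 19 against 6 of 8. The median log2 ratio between the arrays, described next, was 0.08 for the 13 compared members with the letters and 0.10 for the 6 without.

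The values below are processed signals, an intensity from which the scanner software subtracted the background. Ratios were taken after each array had been scaled to its 75th percentile (650.3 for #1 siHOTAIR and 629.9 for siGFP) on the log2 scale, with repeated spots of a probe averaged. A positive log2 ratio means a higher signal in #1 siHOTAIR-transfected cells. The number after ± is the SD of measurement expected from probes spotted 10 times at the same signal. It covers error within an array only and not the difference between cultures. A probe counted as detected, or well above background, if the scanner software marked 50% or more of its spots so, and a gene needed such a probe on 1 array to be compared. Among all genes named on the arrays, 13014 (68.3%) were compared and 12026 (63.1%) were detected on both. Where a gene had several probes, the one with the highest mean signal stood for it. Signals of different probes depend on the probe and were not set against each other.

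HOTAIR, read by a single spot, had a signal of 108 with #1 siHOTAIR and 244 with siGFP. The log2 ratio was -1.22 ± 0.18, so the targeted RNA was lower in the array labelled as its knockdown. Without background correction the ratio was -0.73. The reference gene GAPDH gave signals of 60519 and 58625 and a ratio that rounds to 0, and ACTB gave log2 ratios of -0.02 ± 0.05 and -0.05 ± 0.02 by 2 probes. Both turned positive when the arrays were scaled by their spike-in RNA, GAPDH to 0.17 and ACTB, by its probe with 2 spots, to 0.15.

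Of 11 SCLC and epithelial markers, 7 were detected on 1 or both arrays. Summed over the list, probes below detection included, the signals were 10161 (#1 siHOTAIR) and 10324 (siGFP). YAP1, a transcriptional coactivator that marks a non-neuroendocrine form of SCLC, had signals of 6522 and 6750. The epithelial keratins KRT8 (2825 and 2557) and KRT18 (431 and 565) and the neuronal factor NEUROD1 (213 and 372) were detected on both. CHGA, a granule protein of neuroendocrine cells, was detected with #1 siHOTAIR only, with 72.2 against 10.2 and a difference of at least 2.44-fold. EPCAM (9.19 and 25.1) and NCAM1 (25.5 and 7.20) each rested on 1 of 2 spots. The neuroendocrine markers INSM1 and SYP and the tuft cell factor POU2F3 were on neither array. The defining neuroendocrine markers were thus mostly below detection in these cells, while keratins were present.

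Markers of other cells that can carry an interferon response were read as well. Among 6 leukocyte markers with a probe, CD14 (111 and 121), CD68 (88.3 and 55.4) and PTPRC (106 and 61.0) were detected on both arrays, PTPRC by 1 of its 4 probes, and the T cell marker CD3E was not compared. The list summed to 364 and 302. Of 6 fibroblast markers, COL1A2 (3758 and 3741) and COL1A1 (832 and 414) were above background and DCN, LUM, PDGFRA and COL3A1 were not, with sums of 4629 and 4192. Of 3 markers of plasmacytoid dendritic cells, only LILRA4 (22.4 and 30.003) was above background, on the siGFP array, and the list summed to 40.7 and 44.0. A second PTPRC probe, detected with siGFP only, went the other way, with 12.05 and 20.7. The part in the results below of COL1A1 and CD68, which were higher with #1 siHOTAIR, and of PTPRC was not tested.

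Of the 37 members with a probe, 27 (73.0%) were compared. The signal was well above background on both arrays for 22 (59.5%), on the #1 siHOTAIR array only for BST2 and MX2, and on the siGFP array only for DHX58, OAS2 and IRF1. The other 10 were on neither array. Between the measured signals, at a change of at least 2-fold, 1 of the 27 was higher in #1 siHOTAIR-transfected cells, BST2, beside 2.74% of all genes compared. The siGFP signal of BST2 was not well above background, and with dim signals at their bound 0 members were higher. TRIM22 was lower, 1 of 27, beside 3.41%, and in either direction the share over all genes was 6.15%. Among the 22 members on both arrays, TRIM22 was the single change of this size, beside 1.4% of such genes higher, 1.48% lower and 2.88% in either direction. Scaled by the spike-in RNA, 3.99% of all genes were higher and 2.49% lower, and the members still counted 1 and 1.

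**Figure D1:**
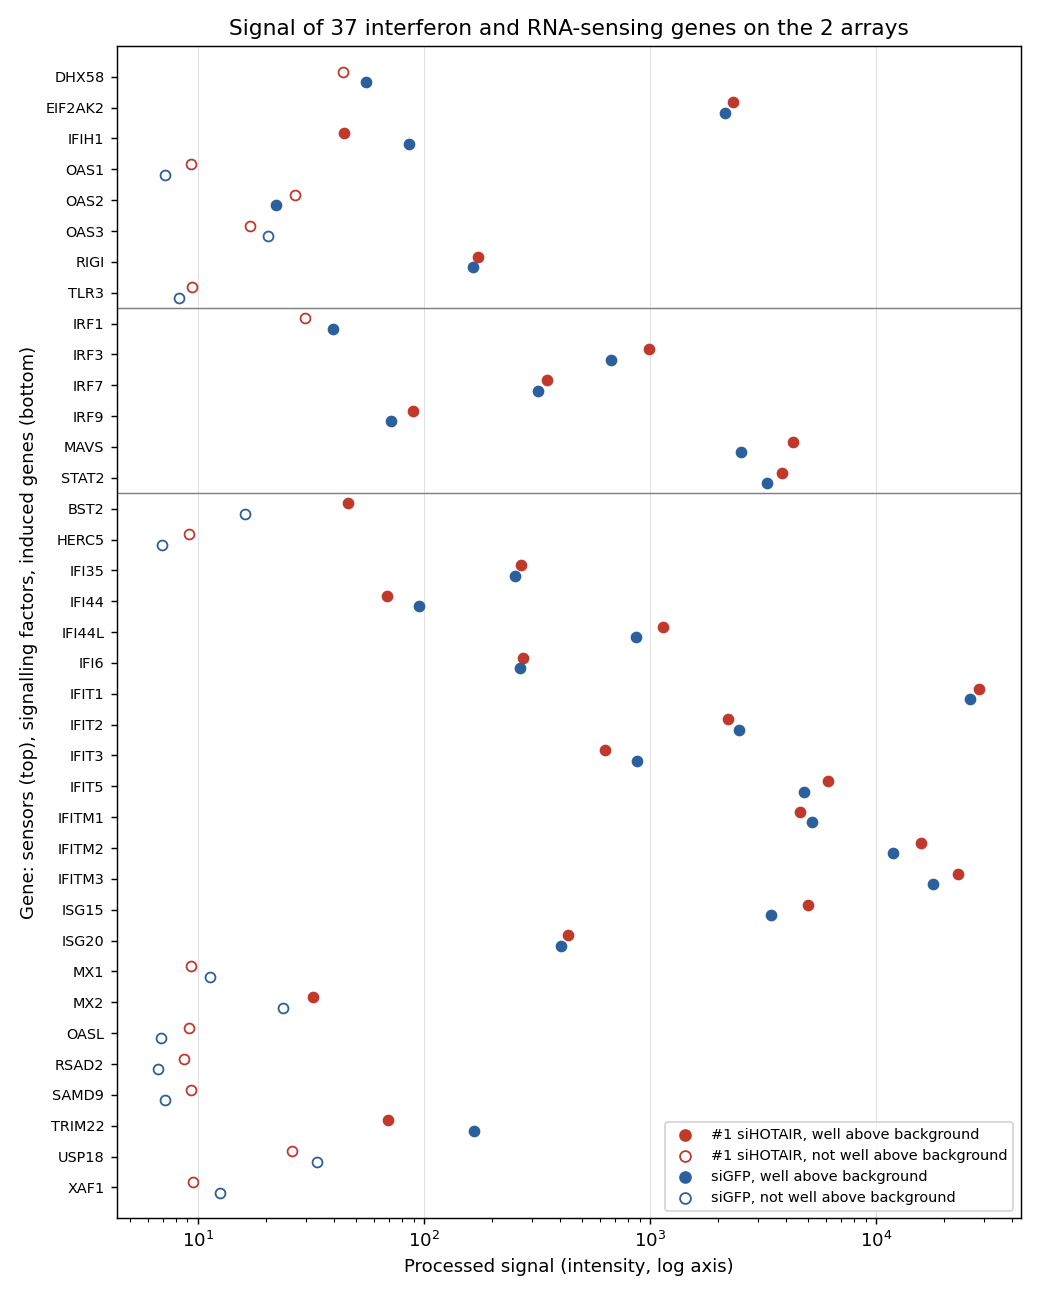
Processed signal of the 37 members with a probe, on a log axis, for #1 siHOTAIR (red) and siGFP (blue), with filled points well above background and open points not. The points of a gene lie close together for most genes, up to IFIT1 at 28606 and 26116, with wider gaps at IFIH1, TRIM22 and BST2.

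The median log2 ratio of the 27 members was 0.08, with a range from -1.32 to 1.45, beside a median of 0.02 over all genes compared. For 19 members the ratio was above 0 and for 8 below, beside 6807 and 6207 of all 13014 genes compared. Among members on both arrays, 19 of 22 (86.4%) differed by less than 1.5-fold, beside 87.2% of all genes on both arrays. Ratios were more than 2 measurement SD above 0 for 9 of the 27 members (33.3%), more than 2 SD below 0 for 6 (22.2%) and within 2 SD for 12 (44.4%). The same shares over all genes were 28.01%, 24.7% and 47.3%, so the spread of the members lay near that of the arrays as a whole.

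**Figure D2:**
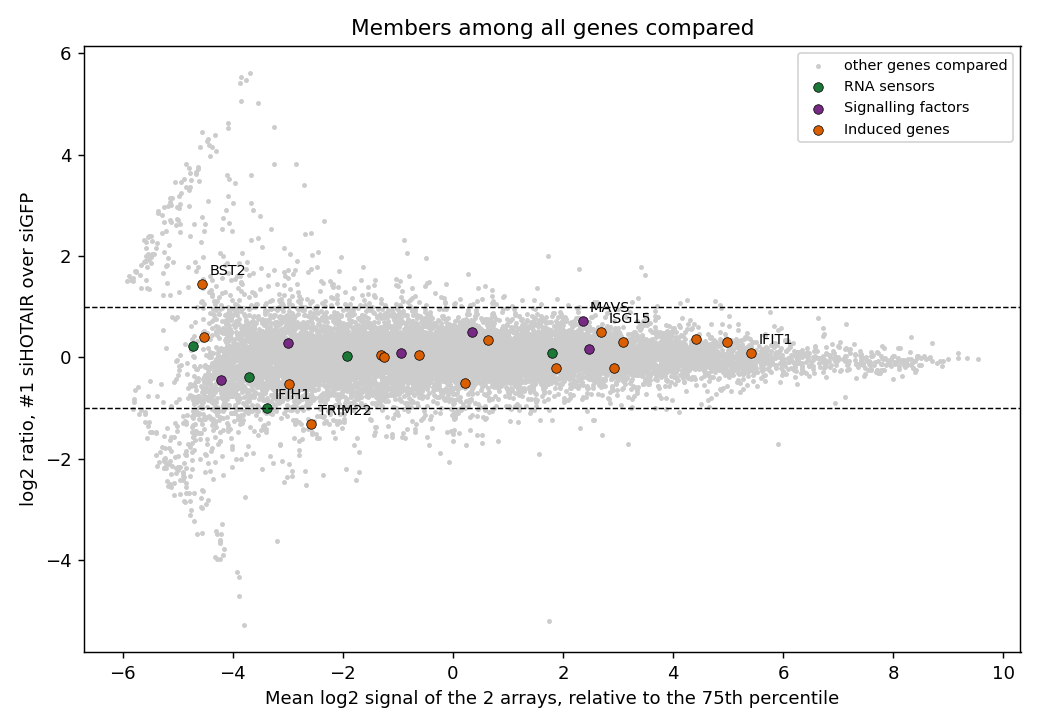
Log2 ratio (#1 siHOTAIR over siGFP) of all genes compared (grey) and of the 27 members (coloured by role) against the mean log2 signal relative to the 75th percentile, with dashed lines at 2-fold. The members lie within the cloud of all genes, and BST2 and TRIM22 lie outside the lines.

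The RNA sensors came first in the pathway. Of 8, 5 were compared, 3 of them on both arrays, and 0 changed by at least 2-fold. RIGI (listed as DDX58), the helicase that binds RNA with a 5′ triphosphate, had signals of 174 and 164. Its log2 ratio was 0.03 ± 0.16, and its 2 spots gave -0.07 and 0.14. A second probe of RIGI, with 1 spot, gave 45.01 and 50.8 and was well above background with siGFP only. The helicase signal was thus alike on both arrays within the measurement error.

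IFIH1, which encodes MDA5, the helicase that senses long double-stranded RNA, was the sensor that differed most. Its signals were 44.3 with #1 siHOTAIR and 85.7 with siGFP, both near the background. The log2 ratio was -0.999 ± 0.16, a difference of 1.998-fold, which falls just short of the threshold. Both spots were lower with #1 siHOTAIR but not by the same amount, at 37.9 against 95.6 and 51.8 against 76.9, for log2 ratios of -1.38 and -0.62. The spot at -1.38 lay in row 143, among the first rows of the array, where an earlier look had found changed spots to be dense, and without those rows the ratio of IFIH1 was -0.62. Only 1 of the 2 spots was well above background on the #1 siHOTAIR array. Scaling to the median of probes on both arrays took IFIH1 past 2-fold, while the ratio came nearest to 0 without background correction, at -0.31.

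EIF2AK2, the kinase PKR that halts translation on binding double-stranded RNA, was bright on both arrays, with 2330 and 2136. The log2 ratio was 0.08 ± 0.06, and its spots gave 0.21 and -0.05. A second probe, with 1 spot, gave 300 and 220 and a log2 ratio of 0.40 ± 0.18, so the probes differed in size but neither showed a 2-fold change.

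DHX58, which encodes the helicase LGP2 that modulates RIGI and MDA5, had 1 spot with 44.0 and 55.5. It was well above background with siGFP only. A log2 ratio of -0.38 ± 0.23 was within 2 SD of 0, and the ratio was -0.01 with normexp and -0.05 without background correction. The oligoadenylate synthetases make the messenger that activates the nuclease RNase L. Of these, OAS2 gave 26.8 and 22.1 and no fold, since its mean signals lay under the detection level of both arrays, OAS1 gave 9.38 and 7.19 and OAS3 gave 17.03 and 20.4. TLR3, the endosomal receptor for double-stranded RNA, gave 9.41 and 8.26. OAS1, OAS3 and TLR3 were on neither array, where the median signals of such probes were 9.34 and 7.32 and the median log2 ratio was 0.34, so ratios among them are offset and are not read. The median log2 ratio of the 5 sensors compared was 0.03.

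All 6 signalling factors were compared, 5 of them on both arrays, and 0 reached 2-fold. The median log2 ratio was 0.22, and 5 of the 6 were above 0. The median of all genes was 0.02 with this scaling and 0.19 when scaled by the spike-in RNA, where that of the signalling factors was 0.39. MAVS, the mitochondrial adaptor of the helicases, had the highest ratio of any member on both arrays. Its brightest probe gave 4275 with #1 siHOTAIR and 2514 with siGFP, and the log2 ratio was 0.72 ± 0.06. Its 2 spots read alike, at 0.78 and 0.66. Its other probes did not show the same, with 262 and 293 (-0.21 ± 0.08) and 502 and 413 (0.23 ± 0.11), so the direction for MAVS differed between probes of the gene.

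IRF3, the factor that MAVS signalling activates first, had signals of 987 and 673. The log2 ratio was 0.51 ± 0.07, with spots at 0.46 and 0.56. A second IRF3 probe gave 862 and 660 and a log2 ratio of 0.34 ± 0.11. Here 3 of 3 spots on 2 probes were higher with #1 siHOTAIR. IRF7, which amplifies interferon production and is itself induced, had 349 and 320 and a log2 ratio of 0.08 ± 0.08.

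STAT2 and IRF9 are the parts of the interferon-activated complex that the group held. STAT2 gave 3826 and 3297, a log2 ratio of 0.17 ± 0.05 with spots at 0.09 and 0.25. IRF9 gave 89.6 and 71.7, a log2 ratio of 0.28 ± 0.16 with spots at 0.53 and 0.02, so its value came from 1 of the spots. IRF1, an interferon-inducible activator, gave 29.96 and 39.5 and was detected with siGFP only. Its log2 ratio was -0.45 ± 0.48, within the measurement error.

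**Figure D3:**
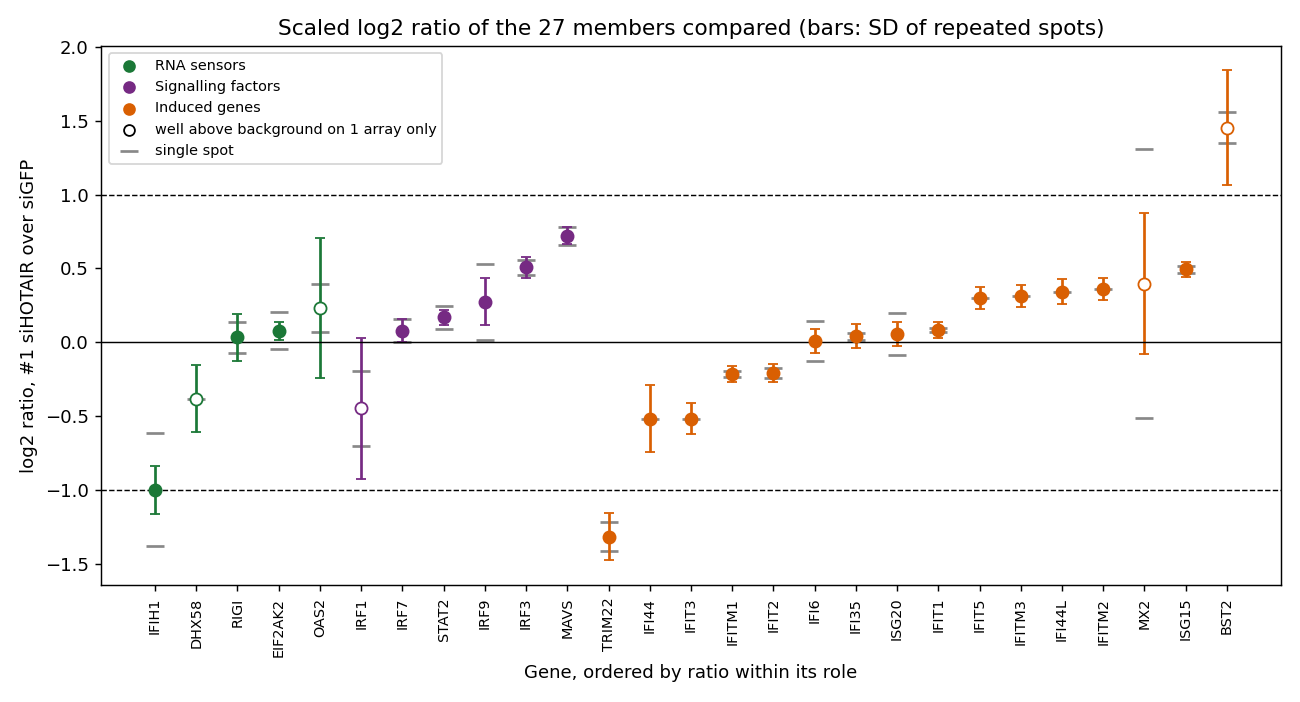
Scaled log2 ratio (#1 siHOTAIR over siGFP) of the 27 members compared, ordered within each role, with bars for the SD of repeated spots, grey dashes for single spots and dashed lines at 2-fold. BST2 at 1.45 and TRIM22 at -1.32 lie outside the lines, IFIH1 lies on the lower line, and the spots of MX2 lie on opposite sides of 0.

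Of 24 induced genes, 23 had a probe, 16 were compared and 14 were on both arrays, with a median log2 ratio of 0.07. Between the measured signals TRIM22 was lower and BST2 higher by 2-fold or more, BST2 with a bound of 1.56-fold only. More than 2 measurement SD from 0 were 6 of the 16 above (37.5%) and 5 below (31.2%), beside 28.01% and 24.7% of all genes, so ratios of both signs were found at shares near those of the whole arrays.

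TRIM22, an antiviral ubiquitin ligase that interferon strongly induces, showed the largest difference among members on both arrays. Its signals were 69.3 with #1 siHOTAIR and 167 with siGFP. The log2 ratio was -1.32 ± 0.16, 2.49-fold lower. Both spots of the probe were lower with #1 siHOTAIR, at 69.1 against 178 and 69.5 against 157. With the normexp background correction, and without any correction, TRIM22 was under 2-fold, with the ratio nearest to 0, -0.72, in the latter.

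BST2 encodes tetherin, which holds budding virus particles at the cell surface. Its signals were 46.0 and 16.3, and the siGFP signal was not well above background. With that signal raised to the detection level of its array, 28.6, BST2 was at least 1.56-fold higher with #1 siHOTAIR, less than the ratio of 1.45 ± 0.39 on the log2 scale between the measured signals. Its spots gave 49.0 against 16.1 and 43.2 against 16.4, alike in direction, but only the first was well above background on the #1 siHOTAIR array. That spot lay in row 64 of 384, among the same first rows, and BST2 was not compared when those rows were left out. Without background correction its log2 ratio was 0.29.

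The IFIT genes encode proteins that bind viral RNA lacking the host cap. IFIT1 had 28606 and 26116, a log2 ratio of 0.09 ± 0.05, and so stood well above background in the control cells as well. IFIT5 was higher, with 6117 and 4816 (0.30 ± 0.07, 1 spot). IFIT2 was lower, with 2217 and 2478 (-0.21 ± 0.06), although a second probe of 1 spot gave 223 and 192 (0.17 ± 0.23). IFIT3 was lower too, with 635 and 880 (-0.52 ± 0.10, 1 spot). The family thus held ratios of both signs, with IFIT5 above 0 and IFIT3 below 0 by more than 2 SD, IFIT1 within 2 SD, and IFIT2 depending on the probe.

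ISG15, a ubiquitin-like modifier that is among the most responsive interferon targets, was higher with #1 siHOTAIR. Its signals were 4991 and 3432, with spots of 4952 against 3463 and 5030 against 3401. The log2 ratio was 0.49 ± 0.05, short of 1.5-fold. Its deconjugating enzyme USP18 (26.1 and 33.6) and its ligase HERC5 (9.19 and 6.96) were on neither array. ISG20, an exonuclease that degrades RNA, gave 434 and 405 and a log2 ratio of 0.05 ± 0.08.

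The IFITM genes encode membrane proteins that block the entry of viruses. IFITM1 was lower with #1 siHOTAIR by both of its probes, with 4616 and 5183 (-0.21 ± 0.05) and with 1874 and 2189 (-0.27 ± 0.06). IFITM2 had 15724 and 11886 (0.36 ± 0.07) and IFITM3 had 22941 and 17908 (0.31 ± 0.07), 1 spot each. IFITM2 and IFITM3 are close paralogs whose transcripts may bind each other's probe, so they may not be separate observations, which was not tested.

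The IFI genes were near 0 or split. IFI6, a small mitochondrial protein, had 275 and 265 (0.01 ± 0.08), and IFI35, a leucine zipper protein, had 268 and 252 (0.04 ± 0.08). IFI44L gave 1140 and 870 (0.34 ± 0.09) and its neighbour IFI44, on the same stretch of chromosome 1, gave 68.8 and 95.5 (-0.52 ± 0.23), 1 spot each. The neighbours thus differed in the sign of their ratios.

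MX2, a dynamin-like GTPase that restricts retroviruses, gave 32.3 and 23.8, mean signals under the detection level of both arrays, so no fold is given. The spots disagreed, with 74.2 against 29.1 and 14.1 against 19.5, for log2 ratios of 1.31 and -0.51, so no direction is given for this gene either. Induced genes on neither array were MX1 (9.39 and 11.3), a GTPase against influenza viruses, and RSAD2 (8.74 and 6.68), which encodes viperin. OASL (9.16 and 6.89), SAMD9 (9.30 and 7.15) and XAF1 (9.51 and 12.6 by the brighter of 2 probes), an inducible binding partner of XIAP, were on neither array as well. For these genes a difference was not detectable at these signals, which does not show that there was none.

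For 16 members detected on both arrays by a probe with 2 spots, the spots of the probe could be set side by side. Both spots were above 0 for 7 members, both were below 0 for 4, and they were opposite for 5. The median difference between the log2 ratios of a pair was 0.16 and the largest among these 16 was 0.76, for IFIH1. For MX2, detected on 1 array only, it was 1.82. Log2 ratios of the size seen for RIGI, IRF7, ISG20 and IFI6 were thus within the difference between spots of 1 probe.

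The rest of the pathway was read from 71 further genes, of which 69 had a probe (IFNA1 and IRF5 had none), 43 were compared and 42 were on both arrays. Their median log2 ratio was 0.01. At 2-fold, 1 of the 43 was higher (IFNL3) and 0 were lower, beside 2.74% and 3.41% of all genes compared. The value of IFNL3, a type III interferon, was 26.2 with #1 siHOTAIR and 6.77 with siGFP, but rested on 1 of 2 spots, 76.8 against 6.13, while the other gave 8.92 against 7.49. Its mean signal lay under the detection level on both sides, so no fold is given. IFNL2, a close copy of IFNL3, had 88.9 and 83.4, a log2 ratio of 0.05 ± 0.16.

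By role, 2 of 9 ligands with a probe were compared, IFNL3 and IFNL2. IFNB1, the interferon that infected epithelial cells make first, gave 9.51 and 6.47 and IFNG gave 8.51 and 6.58, both on neither array. All 6 receptor genes were compared, with a median log2 ratio of -0.15 and the lowest value at IFNLR1, the specific chain of the type III receptor, with 211 and 296 (-0.53 ± 0.13). A second IFNLR1 probe was detected with siGFP only, with 23.9 and 41.2. All 8 kinases, STATs and brakes were compared, with a median of 0.29. STAT3 had the highest log2 ratio of the list on both arrays, with 191 and 119 (0.64 ± 0.16), but its spots gave 0.97 and 0.31, and a second STAT3 probe with 10 spots gave 62.8 and 61.9 (-0.02 ± 0.07). By the probe used for each gene, 6 of the 8 were above 0.

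Of 12 adaptors and kinases of sensing with a probe, 10 were compared, with a median log2 ratio of 0.03. MYD88, the adaptor of most Toll-like receptors, was the highest, with 677 and 450 (0.54 ± 0.08). Of 10 other nucleic acid sensors, 4 were compared, with a median of 0.15, and of 24 other induced genes 13 were compared, with a median of -0.03. EPSTI1, an interferon-induced gene of epithelial and stromal cells, had the lowest ratio among those on both arrays, with 256 and 365 (-0.56 ± 0.04) over 10 spots. Of the 13 other induced genes compared, 0 were at 2-fold in either direction, with 6 ratios above 0 and 7 below.

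**Figure D4:**
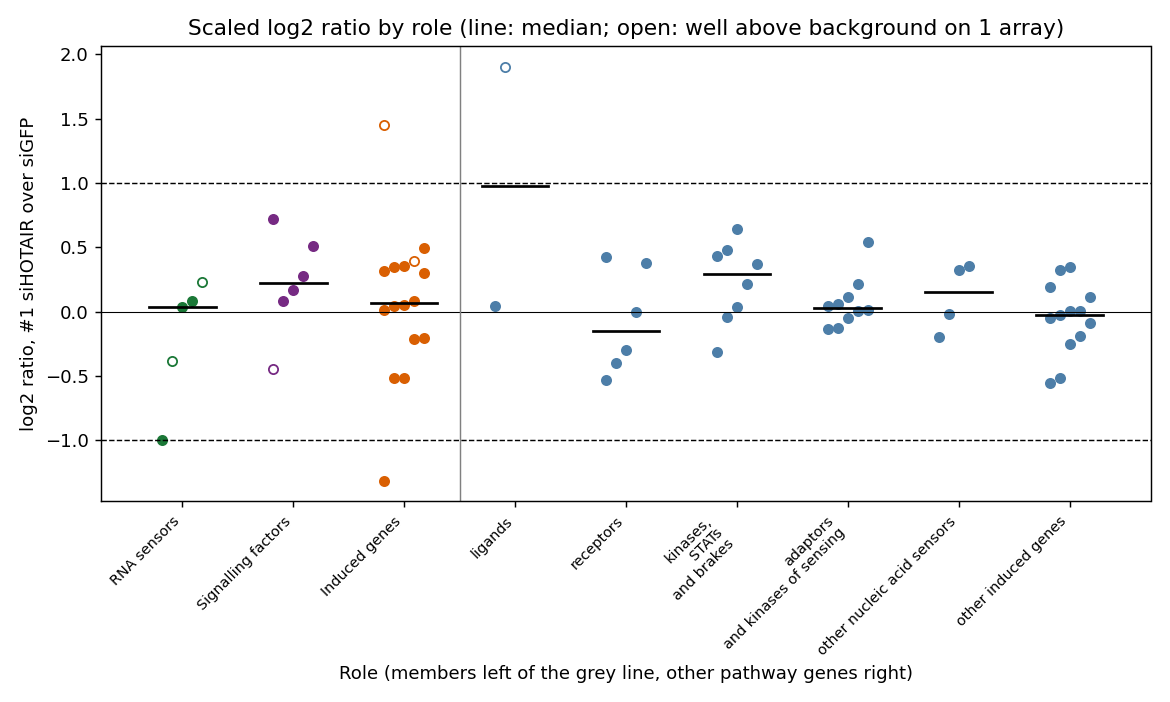
Scaled log2 ratio (#1 siHOTAIR over siGFP) of the members (left of the grey line) and of the 71 other pathway genes by role, 1 point per gene compared, with a line at each median and open points well above background on 1 array only. The medians lie between -0.15 and 0.29 except for the 2 ligands, whose upper point is IFNL3.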

How the data were processed

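Total RNA of 1 #1 siHOTAIR-transfected and 1 siGFP-transfected SBC-3 culture was Cy3-labelled by the authors and hybridized to Agilent human arrays. The authors deposited the scanner output of each array, produced with Agilent Feature Extraction 10.10.1.1 per the submitters' processing notes. Its processed signal is an intensity after background subtraction and correction of trends, not normalized between arrays. The deposited value table of the series holds the background-subtracted intensity (largest difference 0).

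An array had 62976 spots, 58717 without the controls. The scanner software marked 393 (#1 siHOTAIR) and 375 (siGFP) of these as outliers, which were left out, and 0 as saturated. Spots well above background made up 55.5% and 58.3%. The log2 of the deposited signal minus the 75th percentile of the array was computed here, and spots of a probe were averaged. Of 42402 probes, 24117 were compared and 58.5% were named, through unversioned RefSeq accessions, by a table of the GRCh38.p14 assembly. For folds given as at least, a signal not detected on 1 array was replaced by that array's detection level, the dimmest spot counted well above background (37.3 and 28.6), unless its own signal was higher. Counts and medians use the measured signals.

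The measurement SD was read from probes spotted 10 times, binned into 6 signal levels. Alternatives were quantile normalization, the median of probes on both arrays, the spike-in RNA, no scaling, normexp (limma 3.58.1, offset 50), no background correction, the series table floored at 10, every spot well above background, no filter, the median of a gene's probes, the first rows of the array left out, dim signals at their bound, and thresholds of 1.5-fold and 3-fold. Normexp and the uncorrected signal used the median pixel of each spot. Python 3.11.15, numpy 2.4.6, pandas 2.3.3 and matplotlib 3.10.9 were used.

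Named were the members, HOTAIR, ACTB, GAPDH, other pathway genes past 2-fold with the 2 highest and the 2 lowest ratios on both arrays, and markers well above background. IFNL2, IFNB1, IFNG and the markers below background were added after their values were seen. The members, the other pathway genes and the marker lists were chosen with earlier results of these data known. Values of some listed genes are not reported here. The gene ontology step and P-value of the study's methods were not repeated.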

Additional observations from a re-analysis of the deposited data

How the results depend on the processing

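No paired analysis was possible because each condition had 1 array. With the threshold at 1.5-fold, 2 members were higher, 2 were lower and 2 other pathway genes changed, and at 3-fold 0 members were higher and 0 lower. Of those on both arrays, 86.4% of members and 87.2% of all genes were under 1.5-fold. Shares of all genes compared at these 2 thresholds are not given here, so the counts are not read as a result about the members. With normexp, and without background correction, 0 members were higher, 0 were lower and 0 other pathway genes changed, and HOTAIR gave -0.76 and -0.73. The shares of all genes higher and lower were then 0.853% and 0.799% with normexp and 0.661% each without correction. With every spot well above background, without the first rows, or with dim signals at their bound, 0 members were higher and 1 was lower. In the same settings 0 other pathway genes changed. Of all genes, 1.37%, 1.99% and 2.01% were then higher and 1.41%, 3.08% and 1.83% lower. Scaling to the median of probes on both arrays gave 2 members lower, beside 3.60% of all genes. With no filter 3 other pathway genes changed, beside 3.61% of all genes higher and 3.67% lower. Scaling to the spike-in RNA raised the median of all genes from 0.02 to 0.19 and the medians of members, sensors, signalling factors and induced genes to 0.25, 0.20, 0.39 and 0.24. Without the first rows, EIF2AK2 and OAS2 were not compared. The median of the remaining sensors, -0.38, was the value of DHX58 (1 spot), between IFIH1 at -0.62 and RIGI at 0.03. The spike-in scaling shifted every gene by the same amount by construction, so the medians kept their distances from that of all genes. The cause of the other shifts was not tested, except that fewer spots or a higher floor were used by construction. Of 334 values for 29 named genes (the 27 members compared, ACTB and GAPDH) under the alternatives, 282 moved by less than the measurement SD, 52 by more, 23 of these with the spike-in scaling, and 19 had the opposite sign. The ratio ranged from -1.34 to -0.72 for TRIM22, from 0.29 to 1.62 for BST2, from -1.03 to -0.31 for IFIH1, from 0.23 to 0.89 for MAVS and from 0.45 to 0.66 for ISG15. Signal over background limits the dim genes, among them IFIH1, BST2 and TRIM22.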

Other observations

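Several other pathway genes had ratios beyond their measurement SD and were chosen after their values were seen. Of the chains of the interferon gamma receptor, IFNGR1 stood at 645 in #1 siHOTAIR-transfected and 465 in siGFP-transfected cells (log2 ratio 0.43 ± 0.08) and IFNGR2 at 308 and 366 (-0.30 ± 0.08), but the value of IFNGR2 came from 1 of 2 spots, at -0.59 and -0.01. Of the type I receptor, IFNAR2 gave 1296 and 966 (0.38 ± 0.06) while IFNAR1 gave 525 and 509 (0.00 ± 0.08). The receptor kinase TYK2 gave 314 and 218 (0.48 ± 0.13). ADAR, which edits double-stranded RNA and keeps it from being sensed, gave 8136 and 6170 (0.35 ± 0.05), and STING1, the adaptor of DNA sensing, gave 729 and 563 (0.33 ± 0.11, 1 spot). None of these ratios reached 2-fold, and with 1 array per condition none was tested.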
